A study of Mus musculus with 9 samples.

Results

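Circular RNAs (circRNAs) are closed loops in which a splice donor is joined to an acceptor that lies before it in the gene, and a read across that back-splice junction is counted for that circRNA. The circRNAs described here come from 4 mouse genes whose proteins act in cytokinesis, Racgap1, Cit, Diaph3 and Kif14. They are all entries of the deposited circRNA table whose host gene identifier maps to 1 of these genes, 87 of 37751 circRNAs and 4 of 6943 host genes. Cit gave 42 circRNAs, Diaph3 21, Racgap1 19 and Kif14 5. The 4 hosts were selected on measured values, circRNA reads that were lower in differentiating than in proliferating cells, so their values at day 3 and day 6 against day 0 are a description and carry no test.

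The cells were C2C12, an established myoblast line from mouse skeletal muscle, with 3 libraries at each of 3 times and 9 in all. Day 0 cells were proliferating in medium with 10% fetal bovine serum and had not reached confluence. Day 3 and day 6 cells had been confluent and were then kept for that many days in medium with 2% serum, from horse. This medium promotes differentiation into myocytes and fusion into myotubes. Serum amount, serum source, confluence and time changed together between day 0 and the later days, so their parts cannot be told apart. No transgene, deletion or drug is named for any group, and separate cultures are not stated for the libraries of a day, so the spread between them may be technical.

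Cytokinesis divides the cytoplasm after the chromosomes have separated. Antiparallel microtubules between the chromosome sets are bundled by the centralspindlin complex, which marks the cell equator, where formins and myosin build and contract an actomyosin ring. The midbody left between the daughter cells is then cut in abscission. Cells that differentiate into myotubes leave the cell cycle, and the fused cells hold many nuclei without dividing.

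Libraries held 208787 to 443955 back-splice reads. Levels are in CPM, back-splice reads scaled to a common library total with TMM factors, and a listed count was 0 or at least 2. Replicates of each day differed by more than counting noise, with a chi-square per degree of freedom of 11.7 to 14.6 between libraries of the same day, and 26.1% of the 17451 values with a group mean of 10 to under 20 reads were 0. Of the 20 muscle differentiation markers, 16 gave circRNAs and 10 of these passed the filter on low counts. Of the 16, 8 had no reads at day 0, but only Neb, Myh3 and Dmd of these passed the filter. The share of all hosts without day 0 reads was not taken, so nothing is read from this count. The summed level of the muscle markers was 957 to 1028 CPM at day 0, 12081 to 13210 CPM at day 3 and 14270 to 18408 CPM at day 6. Ttn and Ryr1 gave most of this sum, averaging 7537 and 2401 CPM at day 3 and 9202 and 3668 CPM at day 6. Neb was at 22.8, 102 and 0 CPM at day 3 and 0, 0 and 35.4 CPM at day 6. By edgeR's quasi-likelihood test with Benjamini-Hochberg adjustment, 5 of the 10 tested markers were higher at day 3 than at day 0, and 6 at day 6, where 3.05% and 3.85% of all 4135 hosts tested were higher. For the tested marker Ldb3 no read was listed at day 6. Ldb3 was at 32.8, 51.2 and 0 CPM at day 0, 65.1, 49.2 and 14.7 CPM at day 3 and 0 CPM at day 6. By the same edgeR test its unadjusted p at day 6 was 0.0485 against day 0 and 0.0364 against day 3. Neither passed after adjustment (0.284 and 0.736). Myod1, Myog, Myh8 and Actn2 gave no circRNA in the table. Of the markers of other cells, only Pparg (adipocyte), Runx2 (osteoblast) and Pax7, Notch3 and Cd34 (quiescent or reserve cells) gave any. Summed over each list, these levels ran between 94.9 and 422 CPM for the adipocyte list, 235 and 601 CPM for the osteoblast list and 134 and 377 CPM for the quiescent list over all libraries, and no tested host of the 3 lists passed in any comparison by edgeR, at an unadjusted p under 0.05 or by DESeq2. The markers' part in the results below was not tested, and in bulk RNA fewer cells of a type and less RNA per cell cannot be told apart.

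Over the 9 libraries the 4 hosts gave 5649 reads, 2758 from Diaph3, 1885 from Cit, 752 from Racgap1 and 254 from Kif14. Of these reads, 69.7% were from day 0 libraries, against 30.3% of all reads in the table. At day 0 the libraries listed 42, 27 and 45 distinct circRNAs of the 4 hosts, at day 3 15, 17 and 16, and at day 6 7, 5 and 12. Each day 0 library thus listed more than any later library. The whole table listed 9863, 7458 and 11119 circRNAs at day 0, 9805, 9833 and 9591 at day 3, and 7363, 8251 and 10780 at day 6. Of the 87 circRNAs, 50 were listed only at day 0, which is 57.5%, against 24.9% of the table, and 13 were not listed at day 0. The hosts were chosen for fewer reads after day 0, so nothing is read from these shares and counts.

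Racgap1 (ENSMUSG00000023015, chr15:99620496-99651656, minus strand, GRCm38) encodes the GTPase-activating subunit of centralspindlin. Its summed circRNA level was 951, 406 and 642 CPM in the day 0 libraries, 32.5, 94.8 and 251 CPM at day 3, and 136, 0 and 26.0 CPM at day 6. All day 3 and day 6 libraries lay below all day 0 libraries, while day 3 and day 6 overlapped and day 6 replicate 2 had no Racgap1 read. The means were 666 ± 273 CPM at day 0, 126 ± 112 CPM at day 3 and 53.9 ± 72.1 CPM at day 6 (SD, n = 3 each). The day 3 mean was 18.9% and the day 6 mean 8.09% of the day 0 mean, with log2 fold changes of -2.39 ± 0.71 and -3.67 ± 0.77 (approximate SE). Without day 3 replicate 3 the day 3 value was -3.38, and without day 6 replicate 1 the day 6 value was -5.44.

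Cit (ENSMUSG00000029516, chr5:115845278-116008947, plus strand) encodes citron kinase, which acts at the ring and the midbody. Its circRNAs were at 1335, 1446 and 1382 CPM at day 0, 462, 636 and 422 CPM at day 3, and 223, 349 and 267 CPM at day 6. The 3 days did not overlap, and of the 4 hosts Cit was the one in which every day 6 library also lay below every day 3 library. The means were 1388 ± 55.6, 506 ± 114 and 280 ± 64.0 CPM at days 0, 3 and 6 (SD, n = 3 each). This was 36.5% of the day 0 mean at day 3 and 20.2% at day 6, with log2 fold changes of -1.45 ± 0.29 and -2.31 ± 0.30.

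Diaph3 (ENSMUSG00000022021, chr14:86655367-87141235, minus strand) encodes a diaphanous formin, which nucleates and elongates unbranched actin filaments. It had the highest mean level of the 4 hosts on every day, with 2331, 1694 and 2829 CPM at day 0, 693, 572 and 410 CPM at day 3, and 553, 211 and 291 CPM at day 6. Day 0 stood apart from both later days, and days 3 and 6 overlapped because day 6 replicate 1 lay above day 3 replicate 3. The means were 2284 ± 569, 558 ± 142 and 351 ± 179 CPM at days 0, 3 and 6 (SD, n = 3 each). The later means were 24.4% and 15.4% of the day 0 mean, with log2 fold changes of -2.03 ± 0.30 at day 3 and -2.71 ± 0.31 at day 6.

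Kif14 (ENSMUSG00000041498, chr1:136466343-136531511, plus strand) encodes a mitotic kinesin that carries citron kinase to the central spindle and midbody. Its circRNAs were at 361, 162 and 190 CPM at day 0, 0, 52.7 and 79.6 CPM at day 3, and no read was listed in any day 6 library. The day 0 libraries again lay above all later ones. The day 3 mean of 44.1 ± 40.5 CPM was 18.6% of the day 0 mean of 237 ± 108 CPM (SD, n = 3 each), with a log2 fold change of -2.42 ± 1.24, which became -3.15 without day 3 replicate 3. At day 6 the level was at least 20.6-fold lower than at day 0, set against a floor of 3 reads per library. That floor corresponds to 7.09 to 14.5 CPM for a host and 7.10 to 13.5 CPM for a circRNA, and it covers counting error only, as reads are not independent molecules. Here and below, each value given as at least so many fold is a ratio to that floor. It is not a firm minimum, as libraries of a day differed by more than counting noise.

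**Figure D1:**
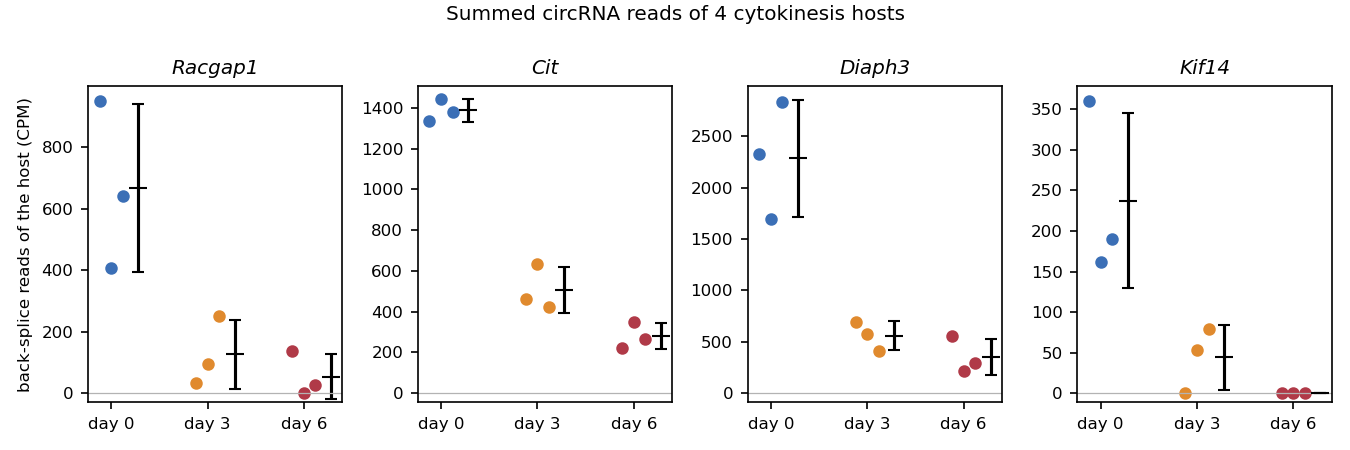
Summed circRNA level of each host (y axis, CPM) in the 3 libraries of days 0, 3 and 6 (points), with the mean and SD of the day beside them (black). In each host all later libraries lie below the day 0 libraries, and Kif14 is at 0 in the 3 day 6 libraries.

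Against day 0, all 4 hosts were without overlap below day 0 at day 3, where 10.4% of all tested hosts were, and at day 6, where 12.7% were. By edgeR's quasi-likelihood test Racgap1, Cit and Diaph3 were among the hosts called lower at day 3, with an adjusted p under 0.05 (0.895% of all tested hosts) and all 4 hosts among those called lower at day 6 (1.79%). Since these contrasts chose the hosts, nothing is read from these counts. The Racgap1 call at day 3 was lost without day 0 replicate 1 (log2 fold change -2.07), without day 0 replicate 3 (-2.42), without day 3 replicate 1 (-1.94) and with DESeq2 (-2.51).

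Day 6 against day 3 was not a contrast that chose the hosts, although it shares its libraries with them. The log2 fold changes were -1.28 ± 0.73 for Racgap1, -0.85 ± 0.29 for Cit and -0.68 ± 0.30 for Diaph3, and Kif14 was at least 3.83-fold lower (2.29-fold without day 3 replicate 3). None of the 4 passed the threshold of 0.05 by edgeR's quasi-likelihood test, with adjusted p-values of 0.736 for Racgap1, Cit and Diaph3 and 0.640 for Kif14. The unadjusted p-values of that model were 0.0889 for Racgap1, 0.00575 for Cit, 0.0282 for Diaph3 and 0.00108 for Kif14. Thus 3 of the 4 lay under 0.05, all lower at day 6, where 5.95% of all tested hosts did in either direction. The hosts were chosen on their day 3 and day 6 values against day 0, so nothing is read from the counts of this comparison. DESeq2 called Kif14, and 0.459% of all tested hosts in either direction. In this comparison 0.0726% of all hosts were called in either direction and 5.9% lay without overlap below day 3, as 1 of the 4 hosts, Cit, did. Without day 6 replicate 1, which held most of the Racgap1 reads of that day, the Racgap1 value was -3.05 and passed, and without day 3 replicate 3 it was -0.29.

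All 87 circRNAs lay on the strand of their host, 83 were of the exon type and 4 of the intron type, and none carried a circBase identifier, which 2.72% of the table did. Both ends of 75 circRNAs fell on annotated exon edges. Exons are numbered below along 1 annotated transcript per gene, Racgap1-213 with 18 exons, Cit-201 with 47, Diaph3-202 with 28 and Kif14-203 with 29. Of the 87 circRNAs, 53 were listed in 1 library, which is 60.9%, close to the 61.4% of the table. Only 3 were listed in all 9 libraries, 1 of Cit and 2 of Diaph3. The 22 circRNAs that passed the filter on low counts or had at least 50 reads are described in full, and the other 65 had 2 to 45 reads each.

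**Figure D2:**
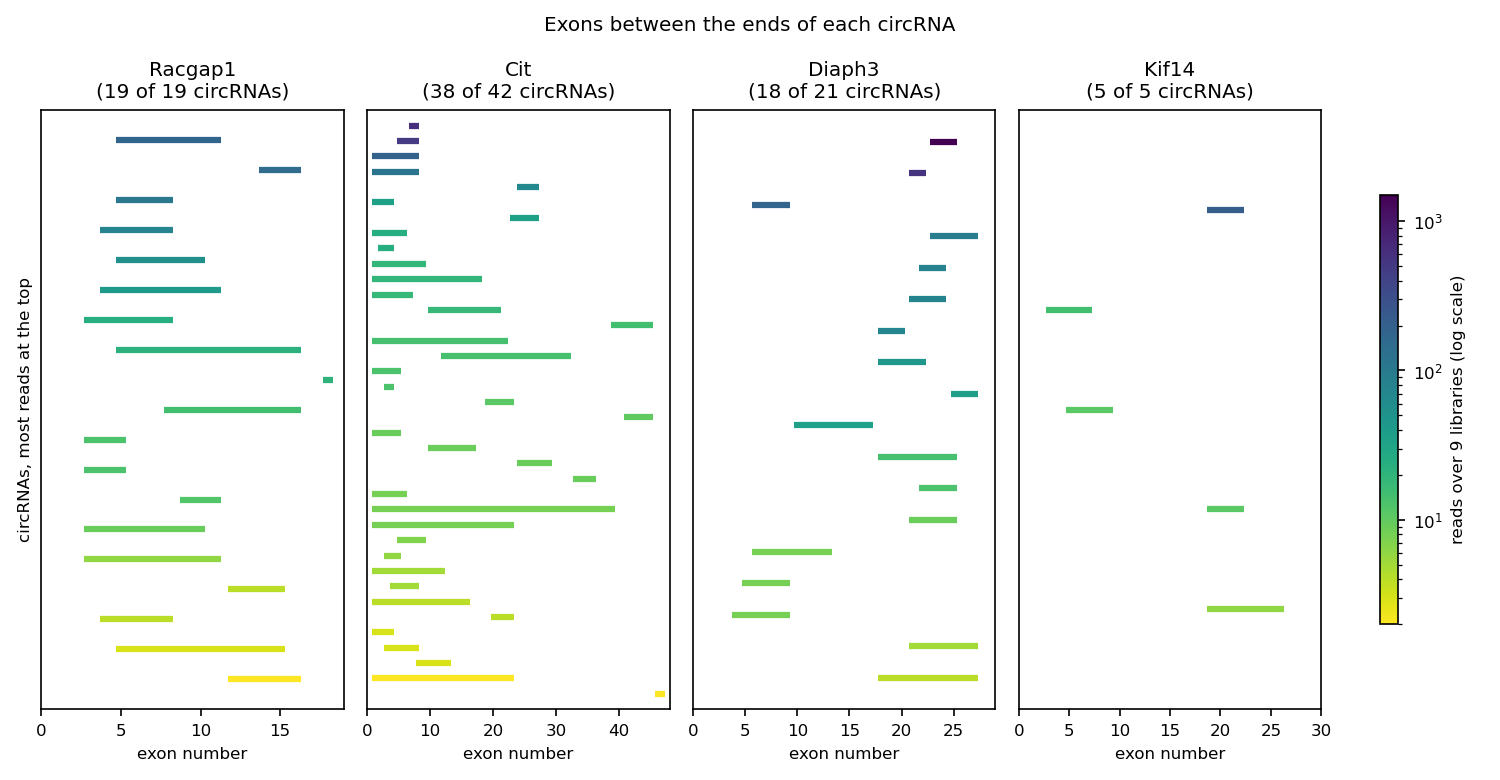
Exons between the 2 ends of each circRNA (horizontal lines) along the exon number of the transcript used for numbering (x axis), 1 row per circRNA with the most reads at the top and the colour giving reads over the 9 libraries on a log scale. circRNAs with an end outside these exons are left out. Reads concentrate on exons 4 to 11 and 14 to 16 of Racgap1, on ends at exon 8 of Cit, on exons 18 to 27 of Diaph3 and on exons 19 to 22 of Kif14.

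The back-splice junctions of the 7 circRNAs on which the results turn are shown here, because the junction is the sequence that tells each circle from the linear transcript. Each is 20 bases up to the donor end in lower case, then 20 bases from the acceptor in capitals, 5′ to 3′ on the strand of the gene, from the GENCODE M21 transcript that holds both ends.
Racgap1 exons 5 to 11: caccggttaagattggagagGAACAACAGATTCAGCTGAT
Racgap1 exons 14 to 16: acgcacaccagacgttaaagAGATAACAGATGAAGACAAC
Cit exons 7 to 8: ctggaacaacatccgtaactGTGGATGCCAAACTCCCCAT
Cit exons 5 to 8: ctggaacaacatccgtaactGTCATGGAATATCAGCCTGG
Diaph3 exons 23 to 25: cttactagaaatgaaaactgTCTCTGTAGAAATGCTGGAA
Diaph3 exons 21 to 22: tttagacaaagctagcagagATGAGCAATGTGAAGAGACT
Kif14 exons 19 to 22: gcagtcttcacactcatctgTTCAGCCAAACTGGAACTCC
The Cit circles share the lower-case stretch, since both end at exon 8, while each of the other circles shown has both stretches to itself among these 7.

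Among the Racgap1 circles, exons 5 to 11 (chr15:99628634-99637774, 756 bases spliced, residues 98 to 349 of 628) gave the most reads, 177. This circle was at 234, 123 and 223 CPM at day 0, unlisted in all 3 day 3 libraries, and at 62.9, 0 and 0 CPM at day 6. All its later reads were thus the 14 reads of day 6 replicate 1. Against day 0 it was at least 20.1-fold lower at day 3, and its log2 fold change at day 6 was -3.22 ± 1.61, while without day 6 replicate 1 it was at 0 at day 6 too.

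Exons 14 to 16 (chr15:99623569-99624343, 363 bases, residues 448 to 569) code for part of the C-terminal region that holds the GAP domain. Whether the course of this circle differed from that of other Racgap1 circles was not tested. The level was 96.8, 77.1 and 91.5 CPM at day 0, 19.3, 70.1 and 144 CPM at day 3, and 0 in the 3 day 6 libraries. The day 3 libraries lay on both sides of day 0, and the day 6 libraries lay below all others. The log2 fold change at day 3 was -0.19 ± 1.68 (0.26 without day 3 replicate 1), and at day 6 the circle was at least 8.11-fold lower than at day 0 and at least 7.12-fold lower than at day 3. The limit against day 3 was 4.09-fold without day 3 replicate 3. For day 6 against day 3 the adjusted p by edgeR's quasi-likelihood test was 0.664 (unadjusted 0.00237), while DESeq2 called it.

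Pooled over the 3 libraries of a day, exons 14 to 16 held 74 of 591 Racgap1 reads at day 0 (12.5%), 75 of 122 at day 3 (61.5%) and 0 of 39 at day 6. Exons 5 to 11 held 163 reads at day 0 (27.6%), 0 at day 3 and 14 at day 6 (35.9%). The donor site of exon 11, used by several circles, had 224 reads at day 0, 0 at day 3 and 14 at day 6, and the donor of exon 16 had 113, 75 and 0. Whether these shares changed was not tested, and the reads of the later days come from few circles and libraries.

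Racgap1 exons 5 to 8 (chr15:99632715-99637774, 342 bases) were at 134, 0 and 95.5 CPM at day 0, 0, 24.5 and 67.4 CPM at day 3, and 0, 0 and 18.9 CPM at day 6. Exons 4 to 8 (chr15:99632715-99639819, 548 bases) were at 53.1, 84.8 and 47.8 CPM at day 0, 0, 0 and 38.1 CPM at day 3, and 35.9, 0 and 7.10 CPM at day 6. The first of these overlapped between the days, while the second had both later days below day 0. Their log2 fold changes were -1.31 ± 2.30 and -2.24 ± 2.64 at day 3, and -3.45 ± 2.49 and -2.09 ± 2.63 at day 6, with errors as large as most of the values. Exons 4 to 11 (chr15:99628634-99639819) were listed at 68.7, 46.3 and 35.8 CPM at day 0 and in no later library. Set against the floor this was at least 5.21-fold lower at day 3 and at least 4.60-fold lower at day 6. With only 43 reads over the day 0 libraries, the later zeros say little. Exons 5 to 10 (chr15:99631109-99637774) were at 119, 0 and 71.6 CPM at day 0 and in no later library, and did not pass the filter. The acceptor site of exon 5 was shared by 5 circles that held 48.3% of the Racgap1 reads.

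Cit reads gathered on a donor site at the end of exon 8 (position 115886807), which closed 6 circles with 74.2% of the host's reads. The exons before it code for the N-terminal region that holds the kinase domain. Exons 7 to 8 (chr5:115884866-115886807, 358 bases, residues 251 to 370 of 2055) were listed in all 9 libraries, at 406, 324 and 533 CPM at day 0, 180, 235 and 114 CPM at day 3, and 144, 211 and 49.7 CPM at day 6. Days 3 and 6 lay below day 0 and overlapped each other. The log2 fold change was -1.26 ± 0.59 at day 3 and -1.65 ± 0.59 at day 6.

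Cit exons 5 to 8 (chr5:115873852-115886807, 592 bases, residues 173 to 370) were at 378, 478 and 346 CPM at day 0, 73.8, 144 and 111 CPM at day 3, and 62.9, 89.3 and 0 CPM at day 6. All later libraries lay below day 0. The log2 fold change was -1.87 ± 0.77 at day 3 and -3.01 ± 0.82 at day 6. The day 6 value was -2.42 without day 6 replicate 3, -2.86 without day 0 replicate 2 and -3.77 without day 6 replicate 2, and the call at day 6 was lost without day 6 replicate 3 and without day 0 replicate 2.

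Other Cit circles began in or beside exon 1. The circle from position 115846347 to the exon 8 donor (chr5:115846347-115886807, 1132 bases in the transcript Cit-215) reaches back over the annotated start codon. It was at 169, 96.4 and 63.7 CPM at day 0, 61.0, 91.1 and 26.4 CPM at day 3, and 0, 0 and 94.7 CPM at day 6, so the days overlapped and 1 library held all day 6 reads. Its log2 fold changes were -0.88 ± 1.54 at day 3 and -1.75 ± 1.57 at day 6. A circle starting slightly further upstream (chr5:115846284-115886807), which no annotated transcript holds whole, was at 203, 0 and 95.5 CPM at day 0, 16.1, 0 and 64.5 CPM at day 3 and 0 CPM at day 6. It was at least 9.12-fold lower at day 6 than at day 0 (4.38-fold without day 0 replicate 1).

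The acceptor site at 115846347 was the most shared one of Cit, with 11 circles and 349 reads, of which 161 were from day 0, 131 from day 3 and 57 from day 6. Its circle to exon 4 (chr5:115846347-115863059, 540 bases in Cit-210) was the 1 tested circRNA of the 4 hosts with a positive log2 fold change at day 3 and at day 6. It was at 0, 0 and 11.9 CPM at day 0, 28.9, 0 and 38.1 CPM at day 3, and 0, 0 and 23.7 CPM at day 6, and its days overlapped. The log2 fold changes of 2.38 ± 2.92 and 0.96 ± 2.76 were smaller than their errors, and the day 6 value turned to -3.32 without day 6 replicate 3. The circle from the same acceptor to exon 6 (chr5:115846347-115875979) was at 25, 0 and 27.9 CPM at day 0, 32.1, 0 and 0 CPM at day 3 and 0 CPM at day 6. Away from the kinase exons, exons 24 to 27 (chr5:115967888-115973832, 633 bases, residues 986 to 1196) were at 25, 189 and 7.96 CPM at day 0, 0, 0 and 23.5 CPM at day 3, and 0 CPM at day 6. Most of these reads were from day 0 replicate 2, and the day 6 level was at least 6.78-fold below that of day 0, or 1.51-fold without that library.

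Diaph3 reads lay mostly between exons 18 and 27, where 13 circles held 2484 reads, 90.1% of the host. These exons code for the C-terminal part with the actin-nucleating FH2 domain. Exons 23 to 25 (chr14:86810336-86835101, 426 bases, residues 892 to 1034 of 1171) formed the most abundant circle of all 4 hosts, with 1462 reads, 53.0% of Diaph3, and were listed in all 9 libraries. The level was 996, 910 and 1469 CPM at day 0, 453, 312 and 320 CPM at day 3, and 418, 142 and 168 CPM at day 6. Both later days lay below day 0 and overlapped each other. The means were 1125 ± 301, 361 ± 79.1 and 243 ± 152 CPM at days 0, 3 and 6 (SD, n = 3 each), with log2 fold changes of -1.64 ± 0.38 at day 3 and -2.22 ± 0.39 at day 6. Without day 6 replicate 1 the day 6 value was -2.83, and without day 0 replicate 3 the day 3 value was -1.37 and its call was lost.

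Diaph3 exons 21 to 22 (chr14:86852072-86866642, 370 bases, residues 769 to 892) sit next to that circle and were also listed in all 9 libraries. They were at 462, 413 and 585 CPM at day 0, 141, 168 and 17.6 CPM at day 3, and 94.3, 56.8 and 82.9 CPM at day 6. Later days again lay below day 0, and day 3 replicate 3 was the lowest of all libraries. The log2 fold change was -2.16 ± 0.64 at day 3 and -2.63 ± 0.66 at day 6. The call at day 6 was lost without day 0 replicate 3 (-2.45) and without day 6 replicate 2 (-2.47).

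The share of the Diaph3 reads in exons 23 to 25 was 48.4% ± 7.11 at day 0, 66.4% ± 11.9 at day 3 and 70.2% ± 12 at day 6, as means of library shares (SD, n = 3 each). It ran between 40.8% and 54.9% at day 0, between 54.6% and 78.4% at day 3 and between 57.7% and 81.6% at day 6, so that day 3 overlapped day 0 by a small margin. Exons 21 to 22 held 21.2% ± 3.23, 18.1% ± 12.8 and 25.1% ± 5.83 at days 0, 3 and 6. In Cit the share of exons 7 to 8 was 29.6% ± 6.98, 34.6% ± 6.44 and 50.8% ± 28, and that of exons 5 to 8 was 28.2% ± 5.06, 21.8% ± 5.24 and 19.2% ± 16.7. Both overlapped between the days.

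**Figure D3:**
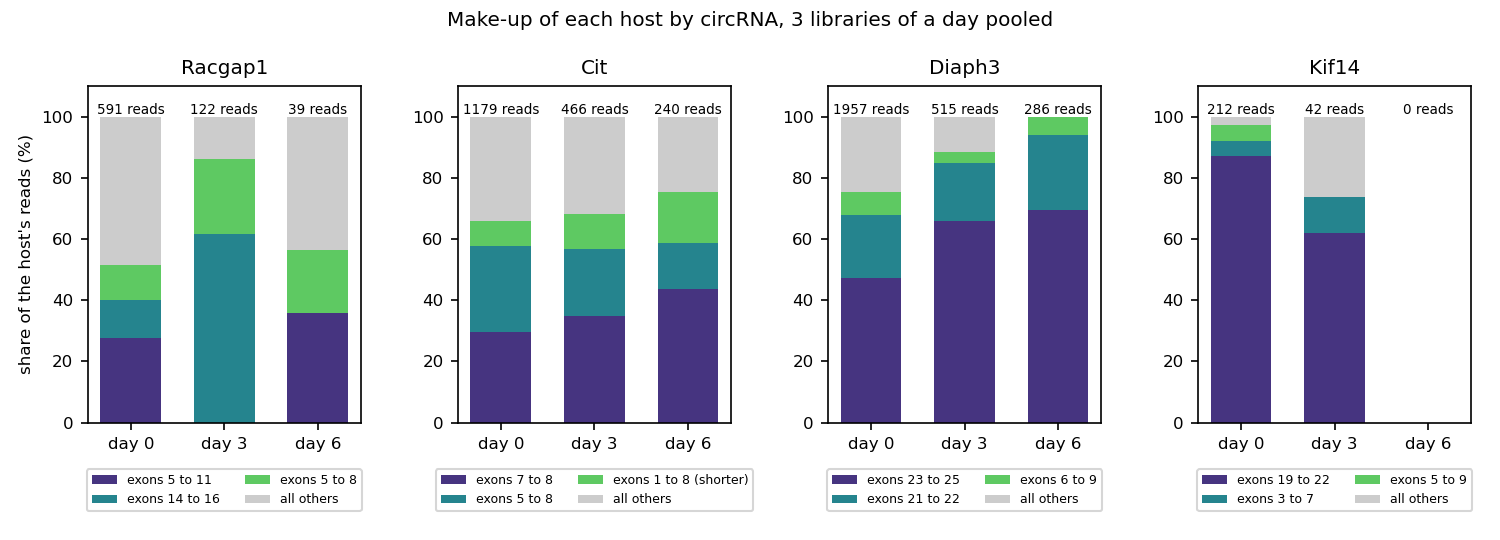
Share of each host's reads (y axis, percent) taken by its 3 circRNAs with the most reads and by all others (grey), for the pooled reads of the 3 libraries of days 0, 3 and 6, with the pooled read count above each bar. Racgap1 exons 14 to 16 hold 61.5% at day 3 and none at day 6, and Diaph3 exons 23 to 25 hold the most at each day.

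The remaining Diaph3 circles had fewer reads, and most were unlisted at day 6. Exons 6 to 9 (chr14:87000009-87007400, 388 bases, residues 188 to 317), in the N-terminal regulatory region, were at 116, 162 and 275 CPM at day 0, 0, 21.0 and 35.2 CPM at day 3, and 0, 0 and 40.2 CPM at day 6. Both later days were below day 0, with log2 fold changes of -3.26 ± 1.59 and -3.66 ± 1.62. Day 6 replicate 3 held all day 6 reads, and without it day 6 was at 0 and passed the threshold against day 0 (adjusted p = 0.0471 by edgeR's quasi-likelihood test). Exons 22 to 24 (chr14:86828992-86852201, 420 bases) were at 96.8, 50.1 and 147 CPM at day 0 and in no later library, at least 10.2-fold lower at day 3 and at least 8.98-fold lower at day 6. Exons 21 to 24 (chr14:86828992-86866642, 660 bases) were at 84.3, 77.1 and 75.6 CPM at day 0, 0, 0 and 35.2 CPM at day 3 and 0 CPM at day 6, with a log2 fold change of -2.70 ± 2.67 at day 3. These circles had all day 0 libraries above all later ones.

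In 3 further Diaph3 circles day 0 replicate 2 held no read. Exons 23 to 27 (chr14:86772086-86835101, 582 bases) were at 231, 0 and 23.9 CPM at day 0, 44.9, 0 and 0 CPM at day 3 and 0 CPM at day 6. Exons 25 to 27 (chr14:86772086-86810471, 292 bases) were at 56.2, 0 and 19.9 CPM at day 0, 44.9, 0 and 0 CPM at day 3 and 0 CPM at day 6. Both of these had their highest value in day 0 replicate 1, and without it the log2 fold changes at day 3, -2.47 ± 2.59 and -0.75 ± 2.91, turned to 0.33 and 0.58. Exons 18 to 20 (chr14:86905937-86918864, 293 bases) were at 116, 0 and 139 CPM at day 0 and in no later library, and did not pass the filter.

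Kif14 was nearly a host of 1 circle. Exons 19 to 22 (chr1:136502647-136513822, 414 bases, residues 1117 to 1255 of 1674), which code for a part C-terminal to the motor domain, gave 211 of its 254 reads, 83.1%. The level was 312, 135 and 199 CPM at day 0, 0, 35.1 and 46.9 CPM at day 3, and 0 in all day 6 libraries. All later libraries lay below day 0. The log2 fold change at day 3 was -2.96 ± 1.39, and at day 6 the level was at least 19.7-fold lower than at day 0. The call at day 6 was lost without day 0 replicate 1, where the level was highest.

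**Figure D4:**
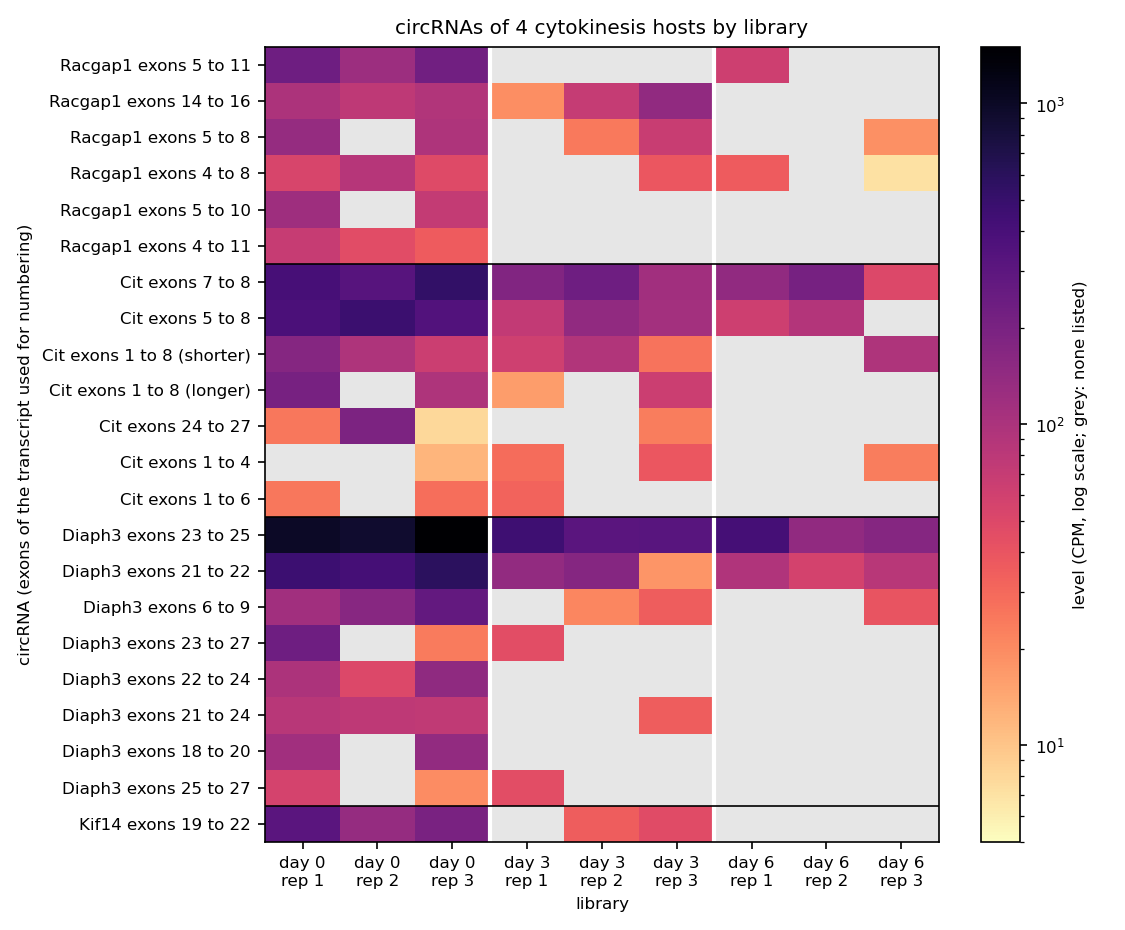
Level (colour, CPM on a log scale, grey where none is listed) of the 22 circRNAs described in full (rows, by host and exons) in the 9 libraries (columns, days 0, 3 and 6). Cit exons 7 to 8 and Diaph3 exons 23 to 25 and 21 to 22 are listed in every library, and most other rows are grey at day 6.

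Of the 87 circRNAs, 20 passed the filter on low counts. A circRNA could pass through its day 0 reads alone, so counts over these 20 are not counts over all members. At day 3, 2 of the 20 were called lower than at day 0 by edgeR's quasi-likelihood test (0.27% of all 8153 tested circRNAs) and 11 lay without overlap below day 0 (6.43%). Those called were Racgap1 exons 5 to 11 and Diaph3 exons 23 to 25. At day 6, 4 were called lower (0.515%) and 13 lay without overlap below day 0 (7.81%), those called being Cit exons 5 to 8, Diaph3 exons 23 to 25, Diaph3 exons 21 to 22 and Kif14 exons 19 to 22. DESeq2 called 3 and 7 of the 20, and the unadjusted p of the edgeR model was under 0.05 for 9 and 13. Over all tested circRNAs, DESeq2 called 3.21% and 5.51%, and 9.51% and 11.6% had an unadjusted p under 0.05, in either direction. Nothing is read from these counts, as the contrasts chose the hosts.

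For day 6 against day 3, edgeR's quasi-likelihood test called 0 of the 20 (0.0613% of all tested circRNAs were called in either direction), 4 had an unadjusted p under 0.05 (4.34%) and DESeq2 called 1 (0.245%), Racgap1 exons 14 to 16. Of the 4, 3 were lower at day 6 and 1, Racgap1 exons 5 to 11, was higher, with all its day 6 reads in day 6 replicate 1. Racgap1 exons 14 to 16 were also the 1 of the 20 with all day 6 libraries below all day 3 libraries, where 5.36% of all tested circRNAs were. Nothing is read from these counts either, as the hosts were chosen on their day 3 and day 6 values against day 0. The log2 fold changes of the 2 most abundant Cit and Diaph3 circles were -0.40 ± 0.59 for Cit exons 7 to 8, -1.14 ± 0.78 for Cit exons 5 to 8, -0.58 ± 0.38 for Diaph3 exons 23 to 25 and -0.48 ± 0.64 for Diaph3 exons 21 to 22.

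Of the members held by an annotated transcript, Diaph3 circles (18) were flanked by long introns, with medians of 32875 bases upstream and 37633 bases downstream. The medians were 3718 and 7928 bases in Cit (26 circles), 1839 and 1244 bases in Racgap1 (17) and 2212 and 2852 bases in Kif14 (4), against 4936 and 3493 bases over all 29135 exonic circRNAs held by a transcript. Among the tested circles held by a transcript, the medians were 18520 and 18520 bases in Diaph3 (7) and 3867.5 and 16311 bases in Cit (6). They were 1839 and 1244 bases in Racgap1 (5) and 2503 and 2031 bases in Kif14 (1), against 8705.5 and 6287 bases over all 7361. Circles of a host share introns and are not independent. Median spliced lengths were 603 bases in Diaph3, 685 in Cit, 637 in Racgap1 and 420 in Kif14, against 585 bases over all. Of the circles held by a transcript, tested or not, the spliced length was a multiple of 3 in 9, 11, 8 and 1 in the same order of hosts, and in 38.2% of all.

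The promoters were searched for CCAAT, which reads ATTGG on the other strand and is the box bound by NF-Y, and for TTTGAA, which reads TTCAAA on the other strand and is the cell cycle homology region of many genes expressed in late cell cycle. The windows were 250 bases before to 50 after the RefSeq start on GRCm38.p6, all 4 hosts had one, and no match of 1 motif overlapped a match of the other in them. CCAAT was in 37.4% and TTTGAA in 17.9% of all 32851 windows. Racgap1 had a CCAAT match beginning 12 bases before the start and a TTTGAA match 6 bases after it. Diaph3 had CCAAT matches 109 and 39 bases before the start and 6 after it, Kif14 had CCAAT at 92 and TTTGAA at 228 bases before the start, and the Cit window held neither. The bases before the Kif14 start end at position 136467847, while the GENCODE gene begins at 136466343. Those of Cit end at 115845655, while that gene begins at 115845278. The Kif14 and Cit windows thus lie inside the annotated genes and need not be at their promoters. The 60 bases before the start, on the gene's strand and with ATTGG in capitals, are shown for the pair of hosts in which they hold a match.
Racgap1, chr15:99651657-99651716, minus strand: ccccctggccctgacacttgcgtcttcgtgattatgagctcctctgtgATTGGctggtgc
Diaph3, chr14:87141225-87141284, minus strand: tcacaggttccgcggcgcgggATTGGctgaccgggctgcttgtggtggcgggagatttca
A match is a description of these letters, and binding was not measured.

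Among the other hosts, likeness was taken as the root mean square difference of log2(CPM + 1) over the 9 libraries after each host's own mean was subtracted, over 3503 hosts with a mean of at least 20 CPM. Smaller values mean more similar log2 levels over the libraries, and libraries at 0 weigh heavily on this scale. The hosts nearest to Diaph3 were Knl1 (0.383), Espl1 (0.384) and Cep192 (0.514), where the median of all hosts was 2.16. Knl1 encodes a kinetochore scaffold, Espl1 separase and Cep192 a centrosome protein. Cit was at 0.602 from Diaph3, with 3 hosts closer, while from the side of Cit 40 hosts were closer than Diaph3. Racgap1 was at 1.98 from Diaph3, with 1550 hosts closer, and Kif14 at 2.79, with 2545 closer and above the median. From Cit, Racgap1 was at 2.37 and Kif14 at 2.79, both above the median, and Racgap1 and Kif14 were at 2.25 from each other. Seen from Racgap1, 81 hosts were closer than Diaph3, 178 closer than Kif14 and 235 closer than Cit. Seen from Kif14, 58 hosts were closer than Racgap1, 177 closer than Diaph3 and 178 closer than Cit. These distances lay below the medians of Racgap1 (3.19) and Kif14 (3.83). The hosts nearest to Cit were Pvt1 (0.294), Lin54 (0.319) and Suclg1 (0.382), with a median of 2.10, those nearest to Racgap1 were Extl3 (0.907), Rer1 (0.978) and Rorb (1.05), with a median of 3.19, and those nearest to Kif14 were Cdc23 (0.779), Tbc1d16 (0.785) and Eif4a2 (0.797), with a median of 3.83. Pvt1 is a long noncoding RNA gene, and Lin54 encodes a subunit of a complex that regulates cell cycle genes, Suclg1 a mitochondrial succinyl-CoA ligase subunit and Extl3 a glycosyltransferase of heparan sulfate synthesis. Rer1 encodes a Golgi retrieval receptor, Rorb a nuclear receptor, Cdc23 a subunit of the anaphase-promoting complex, Tbc1d16 a GTPase-activating protein of membrane traffic and Eif4a2 a translation initiation helicase. The nearest hosts of Racgap1 and Kif14 lay further away than those of Cit and Diaph3. Kif14 averaged 0 CPM at day 6, as did Cdc23, Tbc1d16 and Eif4a2, so these hosts matched in their zeros. Racgap1 had no read in day 6 replicate 2. Whether the lower read counts of Racgap1 and Kif14 bear on the distances was not tested.

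The other genes of cytokinesis were taken from 6 lists that hold 74 genes beside the 4, of which 55 gave circRNAs and 39 were tested as hosts. At day 3 none of the 39 was called higher or lower than at day 0 by edgeR's quasi-likelihood test, where 3.05% and 0.895% of all tested hosts were. Of the 39, 3 lower and 1 higher had an unadjusted p under 0.05, and DESeq2 called 2 lower and 1 higher. Over all tested hosts, 13.4% had an unadjusted p under 0.05 at day 3 and DESeq2 called 6.94%, in either direction. At day 6, edgeR called 1 of the 39 higher and 0 lower, where 3.85% and 1.79% of all tested hosts were. At an unadjusted p under 0.05 there were 7 lower and 2 higher, and by DESeq2 4 lower and 1 higher. The shares of all tested hosts were 17.5% and 10.8%, in either direction. The median log2 fold change of the 39 was -0.18 at day 3 and -0.35 at day 6, against -0.02 and -0.13 for all tested hosts, and 23 and 25 of the 39 were negative. For day 6 against day 3, 0 of the 39 were called by edgeR (0.0726% of all tested hosts), 4 had an unadjusted p under 0.05 (5.95%) and DESeq2 called 0 (0.459%). The median was -0.10, or -0.0078 with hosts at 0 on a day set to their bound, against -0.06 for all.

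Kif23, the kinesin partner of Racgap1 in centralspindlin, was at 200, 165 and 53.2 CPM at day 0, 22.8, 45.7 and 109 CPM at day 3, and 0, 0 and 56.7 CPM at day 6. Its later libraries overlapped day 0, with log2 fold changes of -1.23 ± 1.45 at day 3 and -2.78 ± 1.53 at day 6. Of 3 tested hosts of the chromosomal passenger complex and mitotic kinases none was called. Aurka, a mitotic kinase, averaged 95.5 ± 34.2 CPM at day 0 (SD, n = 3) and had no read at day 3 or day 6, at least 9.83-fold and at least 8.29-fold lower, and it was called by DESeq2 at both days.

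None of the 6 other central spindle and midbody kinesin and microtubule hosts was called. Kif4, a chromokinesin of the central spindle, averaged 94.7 ± 76.7 CPM at day 0, 3.25 ± 5.64 CPM at day 3 and 0 CPM at day 6 (SD, n = 3 each), and was called by DESeq2 at day 6. Clasp1, which stabilises microtubule ends, averaged 476 ± 21.9, 559 ± 17.6 and 554 ± 189 CPM at days 0, 3 and 6.

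In the contractile ring list 10 other hosts were tested. Svil, which encodes the actin- and myosin-binding protein supervillin, also known in muscle, rose to 437 ± 145 CPM at day 6, against 138 ± 63.8 CPM at day 0 (SD, n = 3 each), with a log2 fold change of 1.65 ± 0.48 and an adjusted p of 0.0308 by edgeR's quasi-likelihood test. It was higher in 3 of 3 day 6 libraries than in any day 0 library, and averaged 379 ± 74.8 CPM at day 3. Anln, the ring scaffold anillin, was at 191, 307 and 224 CPM at day 0, 52.1, 0 and 53.1 CPM at day 3 and 116, 8.62 and 14.2 CPM at day 6. Its libraries did not overlap day 0 on either later day, but its log2 fold changes of -2.76 ± 1.17 and -2.39 ± 1.16 did not pass (adjusted p = 0.272 and 0.277). Diaph2, a paralog of Diaph3, averaged 263 ± 54.4, 431 ± 119 and 325 ± 132 CPM at days 0, 3 and 6, and Myh9, a heavy chain of nonmuscle myosin, 719 ± 126, 783 ± 151 and 693 ± 195 CPM.

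The 7 tested septin hosts, whose proteins form filaments at the furrow, and the 11 tested abscission hosts held no call either. Sept9 averaged 1509 ± 109, 1324 ± 399 and 1017 ± 448 CPM at days 0, 3 and 6, and Birc6, a large ubiquitin ligase of the midbody, 587 ± 84.2, 442 ± 57.9 and 368 ± 81.0 CPM. DESeq2 called Exoc4 of the exocyst lower at day 3, and Sept10 and the ring myosin Myh10 lower at day 6.

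**Figure D5:**
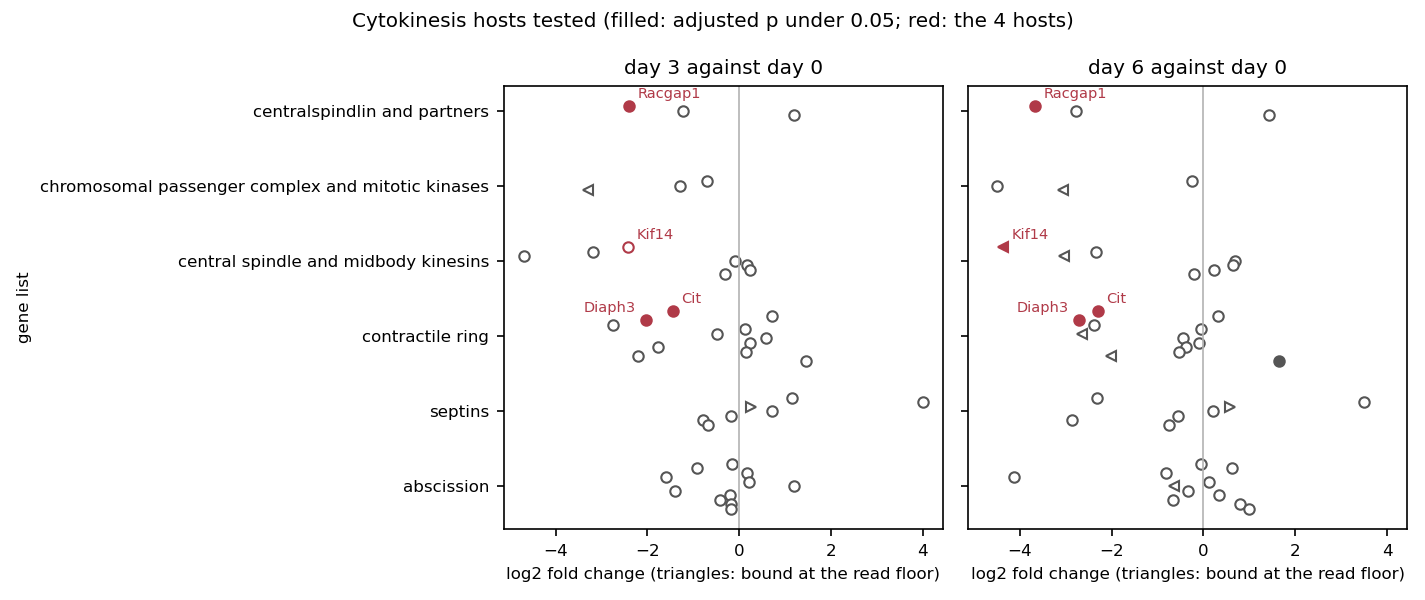
Log2 fold change of each tested cytokinesis host (x axis) by gene list (y axis) for day 3 against day 0 (left) and day 6 against day 0 (right). Red marks the 4 hosts, filled symbols an adjusted p under 0.05 and triangles a bound where all libraries of a day are at 0. Of the other 39 hosts only Svil at day 6 is filled.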

How the data were processed

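The table that the authors deposited holds raw counts of reads at each back-splice junction, by library. BWA and the build GRCm38.p4 (mm10) are named, per the submitters' processing notes. The caller of circRNAs is not given in the sources used here. Per the labels' protocols, total RNA was treated with a bead clean-up and DNase to enrich circRNAs, and no digestion of linear RNA is named, which bears on how many molecules stand behind a count. Columns were mapped to samples by their names, and rows to genes through GENCODE M21. The 4 hosts and all lists were chosen with earlier results of these data known.

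Counts were tested as deposited, per circRNA and summed per host, with edgeR 4.0.16 in R 4.3.3 (TMM, filterByExpr with minimum count 5 and minimum total 15, all 9 libraries, 6 residual degrees of freedom, prior count 0.125). The filter kept 8153 circRNAs with 86.2% of reads and 4135 hosts. Adjusted p-values are Benjamini-Hochberg values over all features, with a threshold of 0.05. The approximate SE divides the log2 value by the root of the F statistic. A bound against 3 reads per library replaces the fitted value of a group with no reads. The script was tested on simulated data. DESeq2 1.42.0, other filters, scalings and samples were alternatives. circRNAs that passed the filter or had at least 50 reads are given in full. Other cytokinesis hosts are named where called, and the further ones (Kif23, Aurka, Kif4, Clasp1, Anln, Diaph2, Myh9, Sept9, Birc6 and those DESeq2 called) were chosen after their values were seen. Likeness names the 3 nearest hosts. Same-numbered libraries of different days did not deviate together.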

Additional observations from a re-analysis of the deposited data

How the results depend on the processing

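Of 996 alternative values for the 4 hosts and their 20 tested circRNAs, 953 kept direction and side of the threshold, 12 passed only under the alternative, 20 lost the call and 11 turned sign. Another 15 had no adjusted p from DESeq2. Most of the 996 values belong to results not called in the main fit, for which no call could be lost. The host calls of Cit and Diaph3 at both days, and of Racgap1 and Kif14 at day 6, held in all 15 alternatives. Among the circRNA calls, only that of Diaph3 exons 23 to 25 at day 6 held in all 15. The Racgap1 host call at day 3 was also lost with minimum count 10, as was that of its exons 5 to 11, which was lost too with DESeq2 and without day 0 replicate 1 or 3. That of Cit exons 5 to 8 at day 6 was lost with DESeq2, minimum count 10, no filter and only 2 groups, and that of Diaph3 exons 21 to 22 with no filter. The cause was not tested. Signs turned when 1 library was left out, and these are the ranges over the libraries left out, some of them fitted against a group at 0. At day 3 against day 0, Racgap1 exons 14 to 16 ran between -0.999 and 0.26, Diaph3 exons 23 to 27 between -7.64 and 0.33, and Diaph3 exons 25 to 27 between -5.91 and 0.58. At day 6 against day 3, Racgap1 exons 4 to 8 ran between -1.65 and 5.06, Cit exons 7 to 8 between -0.87 and 0.016, and Diaph3 exons 6 to 9 between -5.41 and 0.49. At day 6 against day 0, Cit 115846347-115863059 ran between -3.32 and 4.37. None of these was called.

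Over the whole table, the calls at day 3 against day 0 were 129 circRNAs and 163 hosts, at day 6 against day 0 162 and 233, and at day 6 against day 3 5 and 3. DESeq2 gave 262 and 287, 449 and 448, and 20 and 19. Fitting only the 2 groups gave 30 circRNAs at day 3, 70 circRNAs and 139 hosts at day 6 against day 0, and 0 and 1 at day 6 against day 3. With no filter there were 9 circRNAs and 6 hosts at day 6 against day 3. Leaving out 1 library gave 98 to 166 and 131 to 195, 143 to 197 and 185 to 263, and 5 to 8 and 2 to 8. Higher calls were 82.9% (circRNAs) and 77.3% (hosts) at day 3, and 74.1% and 68.2% at day 6. With DESeq2 they were 62.2%, 58.9%, 58.6% and 54.0%, and for hosts with library size only 67.1% and 57.6%. Library size only moved the median log2 fold change of all hosts to -0.15 at day 3 and -0.24 at day 6. The replicate number is shared in the titles only: deviations of same-numbered libraries correlated at -0.029 to 0.0088, those of others at -0.018 to 0.022. The replicate block gave 144 and 188, 172 and 259, and 5 and 4 calls, and changed no call of the 4 hosts or their circRNAs. At these depths a count of 0 says little for a circRNA whose group mean is under 20 reads.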

Other observations

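Some circles of these hosts had ends within 25 bases of another's, 6 pairs in all. Kif14 had a second circle that began 5 bases inside the exon 19 to 22 circle and ended at the same base, with 11 reads, all in day 3 replicate 3, beside 211 reads of the circle itself. Diaph3 had a circle that shared 1 end with exons 23 to 25 and lay 23 bases away at the other, with 12 reads in day 0 replicate 2, beside 1462 reads. Racgap1 had a variant of exons 4 to 8 whose acceptor lay 14 bases further in, with 4 reads in day 3 replicate 1, beside 75 reads, and a pair of circles at exons 3 to 5 that differed by 4 bases at 1 end and had 13 reads each. Cit had circles shifted by the same number of bases at both ends, 2 bases with 13 and 3 reads and 4 bases with 8 and 2 reads. Whether the members of a pair are separate circles or 1 circle placed at 2 positions was not tested.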
